A study of Drosophila melanogaster with 5 samples.

Results

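The Cpr genes of Drosophila encode cuticle proteins, and 70 of the 13945 protein-coding genes on the chromosome arms belong to this family by their symbol, Cpr followed by a digit, in the BDGP6 annotation. The rule rests on the symbol alone, although the family was picked with earlier results of these data known. The accessibility of their loci was examined by ATAC-seq in 5 populations of sorted cells of the adult midgut, each represented by 1 library. In ATAC-seq the Tn5 transposase inserts adapters into accessible chromatin, and peaks are the intervals where fragments pile up above the background of the library. The values used are the peak intervals of each library and, for each peak, the fold enrichment over background and the q-value that the authors obtained with MACS3.

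All 5 populations carried a GAL4 driver, UAS-GFP and the temperature-sensitive repressor tubP-GAL80ts, so that the driver acts only in the warmth. esg+ progenitor cells were marked by esg-GAL4, which is active in intestinal stem cells and their undifferentiated daughters. Enteroendocrine cells (EEs) were marked by prosV1-GAL4 and enterocytes (ECs) by Myo1A-GAL4. In Pros-depleted EEs the prosV1-GAL4 driver was combined with UAS-pros-RNAi. Ttk-depleted ECs carried Myo1A-GAL4 with UAS-ttk-RNAi and a pros-mCherry knock-in. Female flies aged 5 to 7 days were moved from 18 °C to 29 °C for 7 days, and about 40000 cells from 100 to 150 pooled guts were sorted per sample. The gate was GFP+ except for Ttk-depleted ECs, where weakly GFP-positive cells that were also positive for mCherry were taken. The peak names of the progenitor library carry the mark "5w", which the methods do not explain. Whether it stands for another age of these flies or for something else is unknown. Those of EEs, ECs and Pros-depleted EEs carry replicate marks, equally unexplained, and any further replicates were not analysed here.

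Most Cpr proteins carry the Rebers-Riddiford consensus, a stretch of sequence through which cuticle proteins bind chitin. They are made by the epidermis and by other ectodermal epithelia such as the tracheae, the foregut and the hindgut, each time a new cuticle is laid down. The midgut is of endodermal origin and has no cuticle. Its lumen is lined by the peritrophic matrix, a loose sleeve of chitin and of proteins from other families.

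The Cpr genes were short, and 35 of the 70 lay on a single arm, 3L. Their median length was 1094 bp, with a range of 457 to 18590 bp, and 58 of the 70 were under 3 kb. A single annotated start site was given for 63 of them, and the other 7 had 2.

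Sequence at the start sites is shown here because TATAAA, the letters of a TATA box, was the commonest of the 6 motifs searched upstream of the Cpr genes. The letters TATAAA on the gene's strand were found between 45 and 16 bp upstream of the start in 39 of 70 Cpr genes, or 55.7% (95% Wilson interval 44.1 to 66.8), and in 8.75% of all protein-coding genes. Windows of 30 bases from the RefSeq genome sequence of the same build, given 5′ to 3′ on the gene's strand, follow for 6 members, with TATAAA in capitals. These members were chosen because ECs also had a peak over their coding exons. The last pair, from Cpr65Ax1 and Cpr65Ax2, is shown because these neighbouring genes are near-identical.
Cpr23B, chr2L:2838366-2838395, plus strand: gaagtattgggatgaagTATAAAaactccg
Cpr30F, chr2L:9933179-9933208, minus strand: agcaatgctttgacTATAAAagttgcgatc
Cpr65Eb, chr3L:7088803-7088832, minus strand: ttcggattttctggggTATAAAagcgccgg
Cpr72Eb, chr3L:16364854-16364883, plus strand: taggcgccgccTATAAAaggcagaatcccc
Cpr76Ba, chr3L:19518348-19518377, minus strand: ccatagaatggccagaagTATAAAagcatt
Cpr92A, chr3R:19598971-19599000, minus strand: gTATAAAtggccagaacttccagcgaacgc
Cpr65Ax1, chr3L:6148003-6148032, minus strand: tttgcccaaagagttgaacTATAAAtaaac
Cpr65Ax2, chr3L:6150873-6150902, minus strand: ttgcccaaagagttgaacTATAAAtaaact

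The windows at the EC summits of the same 6 members are shown for comparison with those at the starts, because they lie in the coding exons of the genes and not at the TATA box. Here capitals mark runs of at least 4 bases made only of G and C.
Cpr23B, chr2L:2839007-2839036, plus strand: gccagctacagcttcaactatGCCGtgaac
Cpr30F, chr2L:9932896-9932925, minus strand: aagaccgtagaggtggaggcacctGCCCac
Cpr65Eb, chr3L:7088434-7088463, minus strand: aggagcagggagtgggtggttactacgcta
Cpr72Eb, chr3L:16365223-16365252, plus strand: atGGCGaaacccagaccgtggactatgtgg
Cpr76Ba, chr3L:19517915-19517944, minus strand: CCGGCGacatcaagcagcagtgggagaccc
Cpr92A, chr3R:19597892-19597921, minus strand: gctccagctCCGGtgtctgtgccagtggct
Sequence from 1 chromosome arm is not shown, which left 13 of the 15 windows at EC summits and 28 of the 39 with TATAAA upstream of a start. Over these 13 the median GC content was 60%, with a range of 43.3% to 66.7%. Over these 28 it was 43.3%, with a range of 30% to 56.7%. The 28 were kept for holding TATAAA, made of A and T alone, which limits their GC content. The difference between the medians is thus partly set by that choice.

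In the wider window from 250 bp upstream to 50 bp downstream of the start, TATAAA was found in 68.6% of Cpr genes and in 32.1% of all genes. The initiator letters TCAGT, also searched on the gene's strand alone, were found in 41.4% against 36.1%. The other motifs were searched on both strands. GATAAG, the core bound by GATA factors, was found in 5.71% of Cpr genes and in 18.9% of all genes. AAGGTCA, a nuclear receptor half-site, was found in none of the 70 and in 2.11% of all genes. CACCTG, an E-box, was found in 15.7% against 9.32%, and GAGAG in 32.9% against 29.7%. A match describes the letters only. The TATAAA near the start was found in 7 of the 11 members that had a start-site peak in some library and in 32 of the 59 that had none, so it did not separate them.

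A gene was counted as having a start-site peak when a peak reached within 1 kb of one of its annotated start sites. In esg+ progenitor cells 2 of 70 Cpr genes had one, or 2.86% (0.787 to 9.83), where 51.3% of all protein-coding genes did. In EEs it was 1 of 70, or 1.43% (0.253 to 7.66), against 49.4% of all genes. In ECs it was 11 of 70, or 15.7% (9.01 to 26.0), against 45.9%. In Pros-depleted EEs it was 3 of 70, or 4.29% (1.47 to 11.9), against 46.6%, and in Ttk-depleted ECs 0 of 70, which allows up to 5.20%, against 13.8%. The Cpr genes thus lay below the other genes in every library. ECs had the most Cpr peaks in the full lists and, with 3, also at a minimum -log10 q of 5. At a minimum of 10, ECs, progenitor cells and Pros-depleted EEs had 2 each. The shares of all genes were then 26.1%, 44.9% and 33.2%, so this threshold took more from ECs. With lists of equal length ECs had 0 and EEs 1, against 18.7% and 21.9% of all genes. The intervals cover counting error only, neighbouring genes share a locus, and the populations, with a single library each, could not be tested against each other.

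The gap was smaller, but still present, against short genes. The match in length is partial, since 58 of the 70 Cpr genes were under 3 kb and the Cpr intervals cover all 70. Among all protein-coding genes of under 3 kb, 41.6% had a start-site peak in progenitor cells, 37.9% did in EEs and 35.8% in Pros-depleted EEs. The share was 37.0% for ECs and 6.25% for Ttk-depleted ECs. Each of these shares lay above the upper limit of the Cpr interval of the same library.

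**Figure D1:**
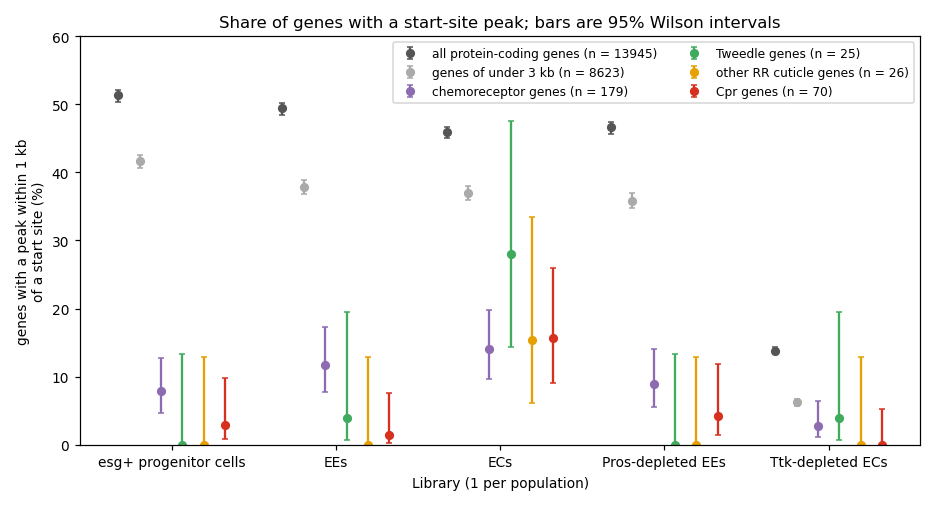
Share of genes with a peak within 1 kb of a start site (y axis, percent) in each of the 5 libraries (x axis), for the 70 Cpr genes, all protein-coding genes, genes of under 3 kb and 3 other gene families. Points are shares and bars are 95% Wilson intervals; the Cpr genes sit between 0% and 4.29% in 4 libraries and at 15.7% in ECs, below all genes throughout.

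Taken over the libraries, 59 of the 70 Cpr genes had no start-site peak in any of them, 8 had one in a single library, and 1 each had one in 2, 3 and 4 libraries. The 11 genes with a peak were those found in ECs: Cpr23B, Cpr30F, Cpr35B, Cpr47Eg, Cpr64Ab, Cpr64Ac, Cpr65Eb, Cpr72Eb, Cpr73D, Cpr76Ba and Cpr92A. Hence 11 of 70 had one in some normal cell type, against 61.1% of all genes, and 11 of 70 in at least 1 of the 5 libraries, against 62.0%. In all 3 of progenitor cells, EEs and ECs only Cpr73D had one, against 37.3% of all genes.

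The strongest peak of Cpr73D in each of 4 libraries lay at a start site of another gene. Cpr73D (3L, 16939100 to 16957689, minus strand) is one of the longest members. Its 5′ end overlaps by 2868 bp that of Ogdh (3L, 16954822 to 16968724, plus strand), which encodes a subunit of the mitochondrial 2-oxoglutarate dehydrogenase complex and runs the other way. The nearest start sites of both genes are 250 bp apart. In progenitor cells the peak nearest to the Cpr73D start was 3.45-fold enriched, and its summit lay 109 bp from an Ogdh start site. The corresponding peak was 5.10-fold enriched in EEs with its summit at 88 bp, 3.65-fold in ECs with its summit at 19 bp, and 5.09-fold in Pros-depleted EEs with its summit at 86 bp. In all 4 libraries the summit was thus nearer to Ogdh than to Cpr73D, from whose start it lay 231 to 359 bp downstream.

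Cpr73D had further peaks on both sides of this one. Inside the gene, 21 bp from another Ogdh start site, a summit was found with a fold of 5.95 in progenitor cells, 4.53 in ECs and 4.08 in Pros-depleted EEs. These summits lay 2210 bp downstream of the Cpr73D start. In EEs the peak at this place had a fold of 4.31, but its summit lay 2007 bp downstream. It was 82 bp from the nearest Ogdh start site, which is not the same one. Upstream of Cpr73D, at positions -880 to -1283 bp relative to its start and over 1 kb from the Ogdh start sites, further peaks had folds of 3.96 in progenitor cells, 2.13 in ECs and 2.98 in Pros-depleted EEs. In ECs alone a peak of 2.08-fold lay in a coding exon near the 3′ end.

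Cpr47Eg, the last gene of a cluster on 2R, had its peak at the neighbouring gene Vhl, which encodes a substrate receptor of an E3 ubiquitin ligase. The edge of the peak lay 986 bp from the Cpr47Eg start in progenitor cells, ECs and Pros-depleted EEs, just inside the window, and 1187 bp away in EEs, just outside it. The summits lay 16, 38 and 7 bp from the Vhl start site in progenitor cells, ECs and Pros-depleted EEs, respectively, with folds of 5.00, 3.03 and 3.74. The difference of Cpr47Eg between EEs and the other libraries was therefore one in the edge of a peak at Vhl. Apart from Cpr47Eg, the members nearest to the window from outside were Cpr65Ea at 1472 bp in ECs, Cpr51A at 1632 bp in progenitor cells and at 1464 bp in Pros-depleted EEs, and Cpr67Fb at 4140 bp in Ttk-depleted ECs.

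**Figure D2:**
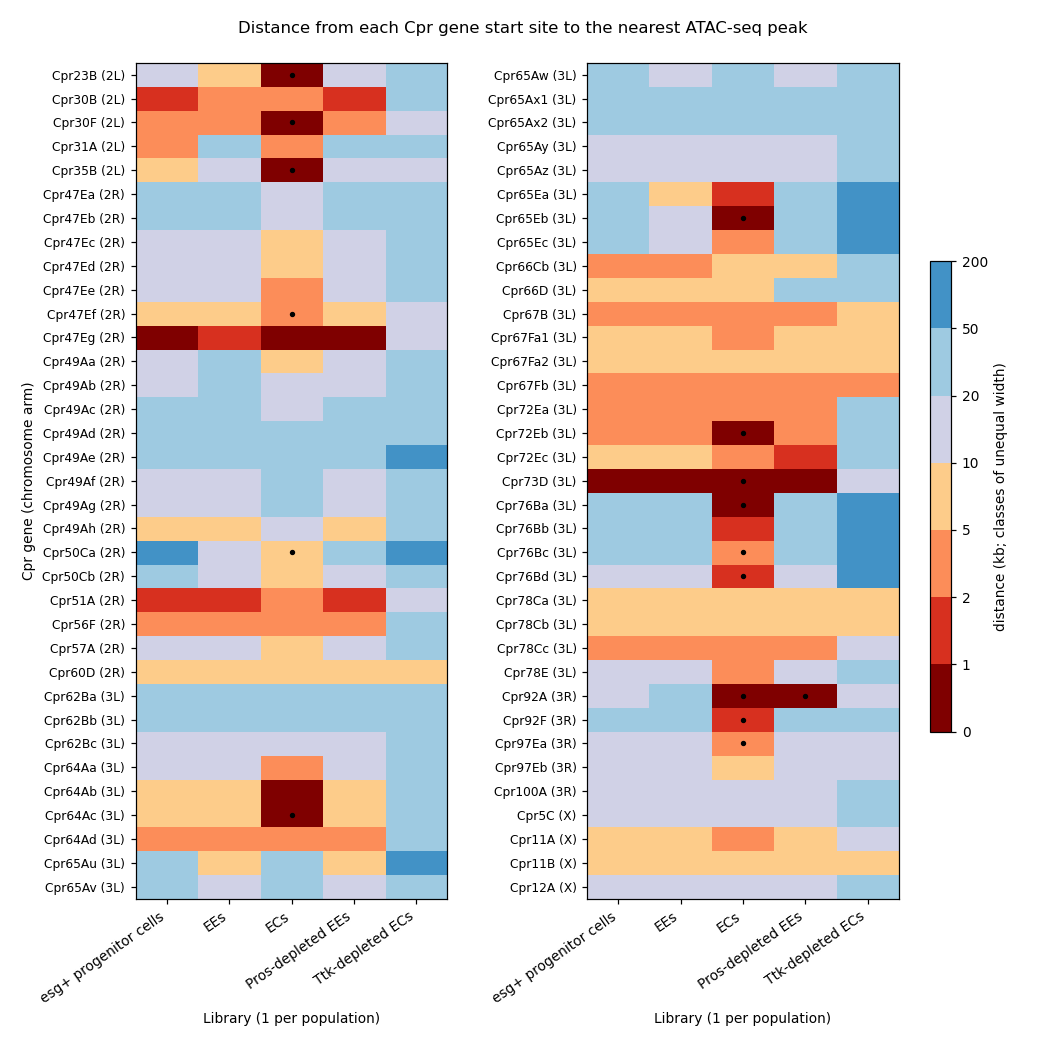
Distance from the start site of each of the 70 Cpr genes (rows, with the chromosome arm) to the nearest peak in each library (columns), in kb classes of unequal width shown by colour; a black dot marks a gene with a peak summit inside its own coding exons. The dark red cells of under 1 kb number 11 in ECs, 3 in Pros-depleted EEs, 2 in progenitor cells, 1 in EEs and 0 in Ttk-depleted ECs, and 15 of the 16 dots are in the EC column.

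The remaining 9 genes with a start-site peak in ECs differed from these. In 8 of them, Cpr23B, Cpr30F, Cpr35B, Cpr64Ac, Cpr65Eb, Cpr72Eb, Cpr76Ba and Cpr92A, the summit lay in a coding exon of the gene itself, 252 to 1048 bp downstream of the start (median 370 bp). The ninth, Cpr64Ab, was counted through the peak in Cpr64Ac, whose edge was 708 bp away. None of these peaks covered the start site, the nearest edge being 114 to 589 bp from it. Cpr23B had a further peak upstream, in a coding exon of another gene and 306 bp from the start site of CG3119.

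All but that of Cpr92A lay below the median fold of the EC library, which was 2.68. Their fold enrichment was 1.89 to 3.02 (median 2.10), from the 5.45th to the 58.8th percentile of the library, and their -log10 q was 1.91 to 9.23, where 1.30 corresponds to the threshold. Cpr92A was the strongest with a fold of 3.02, and Cpr35B the weakest with 1.89. Cpr30F was at 2.20, Cpr72Eb at 2.27 and Cpr23B at 2.33. Cpr65Eb and Cpr76Ba were at 2.01 and Cpr64Ac at 1.93. Only Cpr92A also had such a peak in another library, Pros-depleted EEs, with a fold of 2.40 and its summit 929 bp downstream of the start, against 1048 bp in ECs.

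Counted without the 1 kb limit, 15 of 70 Cpr genes had an EC summit inside their own coding exons, or 21.4% (13.4 to 32.4), against 16.5% of all protein-coding genes and 10.3% of those under 3 kb. The share of all genes lay inside the Cpr interval. That of the short genes lay below it. Neither is a like comparison, since 58 of the 70 were under 3 kb and the others were longer. In the other libraries the counts were 0 of 70 in progenitor cells (2.42% of all genes), 0 of 70 in EEs (4.65%), 1 of 70 in Pros-depleted EEs (3.80%) and 0 of 70 in Ttk-depleted ECs (1.02%). Beside the 8 genes named above, the EC count included Cpr47Ef, Cpr50Ca, Cpr73D, Cpr76Bc, Cpr76Bd, Cpr92F and Cpr97Ea, with folds of 1.94 to 2.97. All of the 8 were among the 58 Cpr genes of under 3 kb, and all of these others were longer. Among short genes it was thus 8 of 58 Cpr genes, against 10.3% of all such genes. The share of all longer genes was not counted. Coding-exon summits were the one measure by which Cpr genes in ECs were not below the other genes.

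Such peaks were common in the EC library as a whole. A coding exon held 26.7% of the EC summits. Among Ttk-depleted ECs it held 4.44%, among Pros-depleted EEs 6.54%, among EEs 7.48% and among progenitor cells 3.75%. The coding-exon peaks of ECs had a median fold of 2.14 and a median GC content of 56.6%, and the other EC peaks 3.20 and 44.9%. The 15 Cpr peaks followed the former, with a median fold of 2.20 and a median GC content of 59.2% (54.5% to 69.8%). The peaks at Ogdh and Vhl had a GC content of 44.5% to 46.1% in ECs.

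The coding sequence of the Cpr genes is itself rich in GC. Its median was 58.0% over the 70 genes, against 53.9% over all protein-coding genes. It was 59.2% in the 15 Cpr genes with a coding-exon summit in ECs and 57.9% in the other 55. Of the 70, 42 were among the 20% of all genes with the highest coding GC content, at 57.7% or more. Of these 42, 10 had a coding-exon summit in ECs, or 23.8%, against 27.9% of all genes in the same range. Of the other 28, 5 had one, or 17.9% (7.88 to 35.6), which overlaps the interval of the former (13.5 to 38.5). Over all genes, split into 10 classes by coding GC content, the share rose from 3.15% in the lowest class to 28.1% and 27.6% in the highest 2. In the other libraries it stayed between 0.430% and 6.45% over the 10 classes. GC content thus moved with the EC coding-exon peaks over all genes. Within the family the difference was inside counting error, and the part of GC content in the Cpr peaks was not tested.

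**Figure D3:**
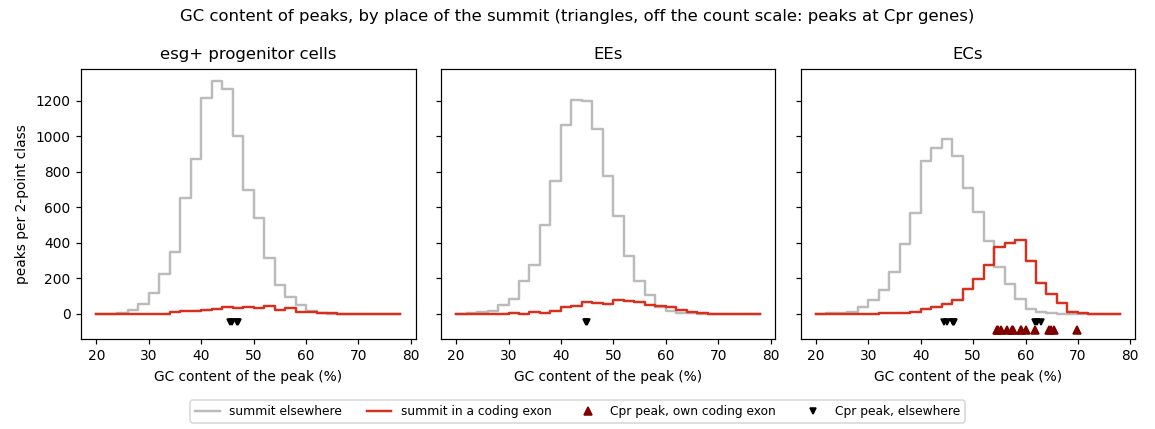
Number of peaks per class of 2 percentage points of GC content (y axis) against the GC content of the peak (x axis, percent) in the 3 normal cell types, with summits in coding exons in red and other summits in grey. Triangles below the curves mark peaks at Cpr genes; those in ECs with a summit in the gene's own coding exon lie at 54.5% to 69.8%, under the red curve, which is high in ECs only.

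The distance to the nearest peak, which needs no window, was long for Cpr genes. Its median was 14.1 kb in progenitor cells, against 0.817 kb for all protein-coding genes, 12.3 kb against 1.09 kb in EEs, and 13.2 kb against 1.51 kb in Pros-depleted EEs. In ECs it was 5.70 kb against 1.45 kb, and in Ttk-depleted ECs 31.7 kb against 13.6 kb. More than 10 kb separated the start from the nearest peak in 42 of 70 Cpr genes in progenitor cells (17.8% of all genes), 41 in EEs (17.4%) and 43 in Pros-depleted EEs (19.1%). It did so in 22 of 70 in ECs (13.8% of all genes) and 62 of 70 in Ttk-depleted ECs (58.6%). For genes of under 3 kb the median was 2.00 kb in progenitor cells and 2.15 kb in ECs.

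In ECs, the shorter distance of the Cpr genes came with the coding-exon peaks. With all peaks whose summit lay in a coding exon left out, a setting chosen after seeing the data, the EC median rose to 15.9 kb, and 2 of 70 Cpr genes, Cpr73D and Cpr47Eg, kept a start-site peak, against 37.5% of all genes. The median of the other libraries was then 12.7 to 31.7 kb. The 20 Cpr genes that were over 10 kb from a peak in all 5 libraries included 6 of the 8 genes of the 49A cluster, all 3 of the 62B cluster and 6 of the 7 of the 65A cluster. The share of all genes that far from a peak in every library was not counted, so the 20 are a description only.

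**Figure D4:**
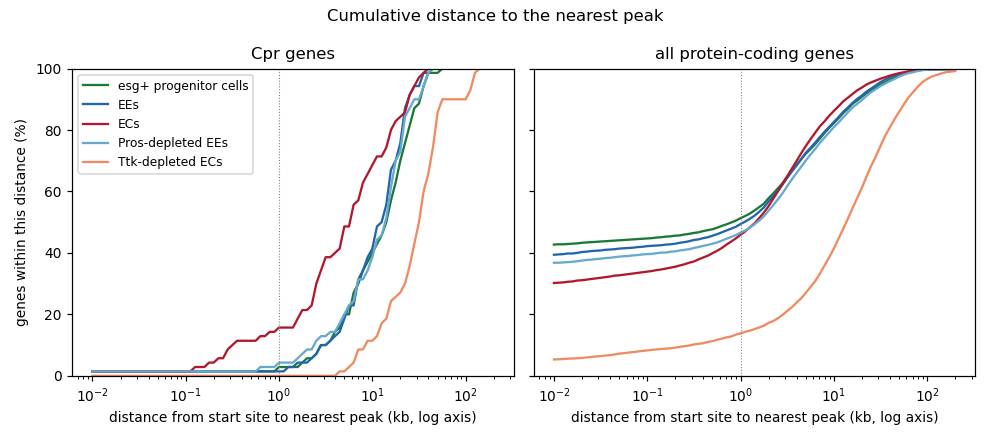
Cumulative share of genes (y axis, percent) within a given distance of the nearest peak (x axis, kb, logarithmic), for the 70 Cpr genes on the left and all 13945 protein-coding genes on the right, with 1 line per library and a dotted line at 1 kb. The EC line of the Cpr genes runs to the left of the other libraries up to about 20 kb, with a median of 5.70 kb, and the line of Ttk-depleted ECs to the right, at 31.7 kb.

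Apart from the 35 Cpr genes on 3L and the 4 on X, 21 were on 2R and 5 each on 2L and 3R. Of the 70, 45 lay in 10 clusters, each made of at least 3 members with no more than 20 kb between neighbours. Their combined length was 169 kb. The largest were the 8 genes from Cpr49Aa to Cpr49Ah and the 7 each from Cpr47Ea to Cpr47Eg and from Cpr65Au to Cpr65Az. In this last cluster the Cpr genes are interspersed with 10 cuticle genes of other names, mostly larval cuticle proteins of the Lcp65A group. The others were Cpr64Aa to Cpr64Ad and Cpr76Ba to Cpr76Bd, with 4 genes each, and 5 groups of 3, Cpr62Ba to Cpr62Bc, Cpr65Ea to Cpr65Ec, Cpr67Fa1 to Cpr67Fb, Cpr72Ea to Cpr72Ec and Cpr78Ca to Cpr78Cc.

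Between the ends of the 10 clusters there was no peak at all in progenitor cells, EEs, Pros-depleted EEs or Ttk-depleted ECs. On the arms as a whole these libraries had 6.95, 6.76, 6.32 and 2.44 peaks per 100 kb. ECs had 7 peaks in the clusters, or 4.13 per 100 kb, against 7.51 per 100 kb on the arms. Of the 7, 3 were in the 76B cluster, in coding exons of Cpr76Ba, Cpr76Bc and Cpr76Bd. The 47E, 64A, 65E and 72E clusters had 1 each, in coding exons of Cpr47Ef, Cpr64Ac, Cpr65Eb and Cpr72Eb. The 49A, 62B, 65A, 67F and 78C clusters had none.

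In ECs, 6 of the 45 clustered genes and 5 of the 25 others had a start-site peak. The members of the 65A cluster were 12.7 to 37.0 kb from the nearest peak in progenitor cells and 12.9 to 37.2 kb in ECs. In EEs they were 6.38 to 22.6 kb away and in Pros-depleted EEs 6.46 to 22.6 kb. The members of the 65E cluster were 0.274 to 4.69 kb from a peak in ECs, 8.88 to 15.5 kb in EEs and 31.8 to 38.4 kb in progenitor cells. The 67F cluster was the one that came nearest to a peak in Ttk-depleted ECs, at 4.14 to 8.32 kb.

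**Figure D5:**
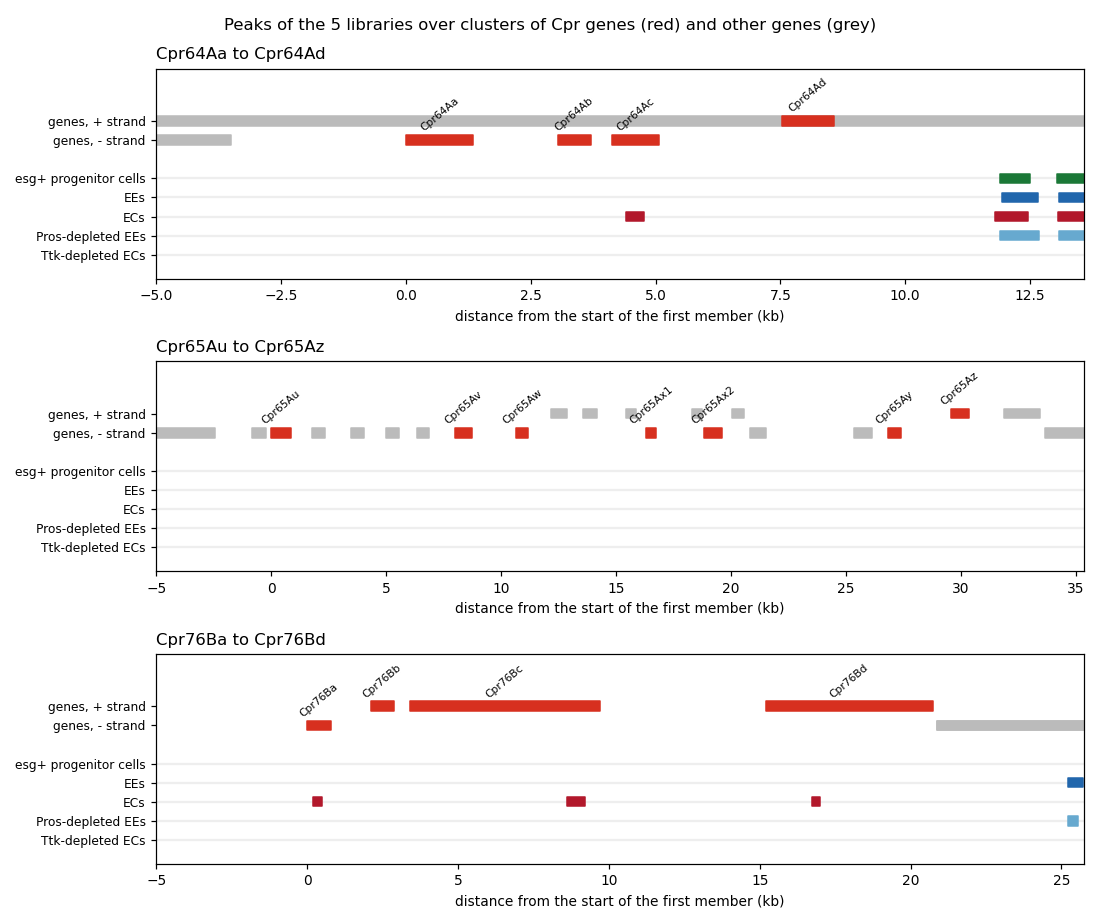
Peaks of the 5 libraries (coloured bars, 1 row per library) over 3 clusters of Cpr genes (red bars) and other genes (grey bars), against the distance in kb from the start of the leftmost Cpr gene. Within the Cpr65Au to Cpr65Az cluster no library has a peak, the Cpr64Aa to Cpr64Ad cluster has 1 EC peak in Cpr64Ac, and the Cpr76Ba to Cpr76Bd cluster has 3 EC peaks inside genes.

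The absence of a peak says less for a near-identical pair of genes, since the authors removed reads that mapped to several places. The start-site windows of Cpr65Ax1 and Cpr65Ax2 shared a stretch of 1242 bp with 99.8% identity, which covered 62.1% of each window of 2001 bp. No other member had a copy of its window elsewhere in the genome at 95% identity over at least 150 bp. The part of the removed reads in these 2 genes was not tested.

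Depletion of Pros in EEs was accompanied by few changes at the Cpr genes. Cpr73D had a start-site peak in both EEs and Pros-depleted EEs, Cpr47Eg and Cpr92A had one only after depletion, and none was lost. Of all 13945 genes, 6061 had a peak in both libraries, 431 only after depletion and 822 only before. The change at Cpr47Eg was the shift of a peak edge at Vhl given above. That at Cpr92A was the coding-exon peak of 2.40-fold, at the 9.40th percentile of its library. For single libraries the size of these changes has no replicate check.

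After Ttk depletion in ECs all 11 Cpr genes with a start-site peak in ECs lacked one, and none gained one. Of all genes, 4632 had a peak in ECs only, 163 in Ttk-depleted ECs only and 1764 in both. The peak list of Ttk-depleted ECs was much shorter than the others, with 3269 peaks against 8466 to 10048, and the depth of the libraries is unknown. Its lowest fold was 3.09, against 1.48 in ECs. The EC coding-exon peaks near Cpr start sites, of up to 3.02-fold, and the EC peak at Vhl, of 3.03-fold, were below 3.09. Peaks of that fold were thus not listed for any gene in Ttk-depleted ECs. When each list was cut to its strongest 3269 peaks, the Cpr genes with a start-site peak were Cpr73D in EEs and its depleted counterpart, and none in the other 3 libraries. Shares of all genes were then 13.8% to 21.9%.

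The markers of the sorted cells followed their labels only in part at the level of start-site peaks. Of the 3 progenitor markers, EEs had a start-site peak at 2, the same number as progenitor cells, while ECs had 1. Of the 3 EE markers, 2 had one in EEs, whereas progenitor cells and ECs had 1 each. Of the 3 EC markers, 2 had one in ECs, and all 3 in progenitor cells and in EEs. esg, pros and nub, the transcription factor genes of progenitor cells, EEs and ECs, had a start-site peak in all 5 libraries. The EE hormone gene AstC had one only in EEs and Pros-depleted EEs. Tk, another hormone gene of EEs, and Sox100B, a marker of progenitor cells, had none in any library, the EC gene Myo31DF had none in ECs, and mex1, another EC gene, had one in ECs and in all others but Ttk-depleted ECs. A start-site peak at a Cpr gene is likewise no measure of its transcription, and the RNA levels were not analysed here.

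Other cuticle genes, from lists drawn up by family name and known role, showed a similar picture. Of 26 Rebers-Riddiford cuticle genes with other names, none had a start-site peak in progenitor cells, EEs, Pros-depleted EEs or Ttk-depleted ECs, and 4 had one in ECs. These 4 were resilin, which encodes an elastic cuticle protein, and Ccp84Ac, Ccp84Ae and Ccp84Af of the 84A cluster. Of the 25 Tweedle genes, a family of cuticle proteins with no Rebers-Riddiford consensus, 7 had one in ECs, 1 each in EEs and Ttk-depleted ECs, and none in progenitor cells and Pros-depleted EEs. Coding-exon summits in ECs were found in 3 of the 26 and 6 of the 25.

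Genes that build and regulate cuticle were counted as well. Of 18 genes for chitin synthesis and cuticle assembly, 5 had a start-site peak in progenitor cells, 5 in ECs, 4 each in EEs and Pros-depleted EEs, with 2 in Ttk-depleted ECs. Their 27.8% in progenitor cells and 27.8% in ECs lay below the 51.3% and 45.9% of all genes, and the latter was close to the 28% of the Tweedle genes. mmy, needed to make the precursor of chitin, and rtv had one in all 5 libraries. kkv, the chitin synthase gene of the epidermis, had one in progenitor cells, EEs and Pros-depleted EEs, with peak edges 0.951 to 0.999 kb from the start, and lay 1.07 kb from a peak in ECs. Of 8 genes for regulators of cuticle genes, such as EcR, ftz-f1, Hr3 and grh, 7 had one in progenitor cells, 6 in Ttk-depleted ECs, and 8 in each of EEs, ECs and Pros-depleted EEs. Lists this small give counts only.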

How the data were processed

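Per the methods, the authors trimmed reads with Cutadapt, mapped them to BDGP6 with bowtie2 (2.2.4 per the submitters' processing notes, while the methods give a later version), discarded PCR duplicates, reads with several placements and blacklisted stretches, and ran MACS3 on every library. The deposited lists give each peak's fold enrichment, a ratio to the background of its own library, and its -log10 p-value and -log10 q-value. The integer score deposited by the authors with each peak was not used. Depth is not stated in the sources used here. Reads and RNA-seq were not used.

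Peaks on 6 chromosome arms were kept. Genes came from Ensembl release 115 (BDGP6) and sequence from RefSeq. Python 3.11.15, numpy 2.4.6, pandas 2.3.3, SciPy 1.17.1, Biopython 1.88, matplotlib 3.10.9 and blastn 2.17.0 were used. The calls were tested on simulated peaks at 200 genes, with 0 wrong.

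Counts stand beside those of all genes, with 95% Wilson intervals. The members and the comparison lists were chosen with earlier results of these data known. Genes were named by a rule: members with peaks in at least 4 libraries, in exactly 1 normal cell type, or changed by depletion, the 10 with the strongest start-site peaks, the ends of clusters, and the nearest other genes. Other genes named were chosen after their values were seen. Alternatives were minimum -log10 q values of 5 and 10, lists of equal length, windows of 0, 500 bp and 3 kb, summits, 5′ ends, nearest genes, cluster gaps of 10 and 50 kb, short genes, and, added later, coding-exon peaks left out.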

Additional observations from a re-analysis of the deposited data

Results flagged for a closer look

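Beyond 1 kb of the start sites, and so outside the main count, 10 EC peaks lay over the bodies of 7 Cpr genes, against 0 in Ttk-depleted ECs and 1 in each of the other libraries. The 7 genes are 10% of the family (4.93 to 19.2), where 16.4% of all protein-coding genes and 3.20% of those under 3 kb had such a peak in ECs. Over all genes the share was also highest in ECs. It was 11.5% in progenitor cells, 12.4% in EEs and 11.0% in Pros-depleted EEs, where 1 of 70 Cpr genes had one. In Ttk-depleted ECs it was 4.96%, against 0 of 70. All 7 are longer than 3 kb, so the share of the short genes is not a like comparison. The EC peaks lay over Cpr47Ef, Cpr50Ca, Cpr73D, Cpr76Bc, Cpr76Bd, Cpr92F and Cpr97Ea. The single peak of progenitor cells, EEs and Pros-depleted EEs was the one near inner Ogdh start sites in Cpr73D. Cpr50Ca, which spans 17888 bp on 2R, held 3 of the EC peaks. The strongest of them, in an intron 16836 bp below the start, had a fold of 4.41, a -log10 q of 22.1 and a GC content of 46.2%. Another, with a fold of 2.58, had its summit in a coding exon of a different gene, 671 bp from the start site of S-Lap7. The last was in a coding exon of Cpr50Ca with a fold of 2.39.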

How the results depend on the processing

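Start-site counts of the 70 Cpr genes depended on the window and, in ECs, on the peak threshold. With a window of 3 kb they were 7 in progenitor cells, 7 in EEs, 26 in ECs and 9 in Pros-depleted EEs. The shares of all genes were then 63.8%, 63.4%, 63.8% and 60.6%, respectively. At 3 kb the Cpr counts were 28 in any normal cell type and 6 in all 3. With peaks over the start site they were 0 in progenitor cells and 1 in each of ECs, Pros-depleted EEs and any normal type, with 0 in all 3. With 500 bp, progenitor cells and Pros-depleted EEs had 1 each. With summits within 1 kb, progenitor cells had 1. With peaks given to the nearest gene, progenitor cells had 1, EEs 0 and all 3 types 0. In ECs, and in any normal type, a -log10 q of at least 5 left 3 and of at least 10 left 2, as did leaving out coding-exon peaks. With lists of equal length there were 0 in progenitor cells, 0 in ECs, 1 in Pros-depleted EEs, 1 in any normal type and 0 in all 3.

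Median distances at equal numbers were 21.2 kb in progenitor cells and in EEs, 20.6 kb in ECs and 20.4 kb in Pros-depleted EEs. In ECs they were 10.1 kb at a -log10 q of 5, 18.9 kb at 10 and 15.9 kb without coding-exon peaks. In Ttk-depleted ECs they were 60.3 kb at 5 and 369 kb at 10. Members with a peak only after Pros depletion numbered 1 at either q threshold, by summit and without coding-exon peaks, and 0 at equal numbers, 500 bp and over the start site. Members with a peak in ECs but not in Ttk-depleted ECs numbered 3 at a -log10 q of 5, 2 at 10, 0 at equal numbers, 1 over the start site, 26 at 3 kb and 2 without coding-exon peaks. For all genes of under 3 kb, the share in Ttk-depleted ECs was 6.25% against 13.8%. Using 5′ ends alone, or cluster gaps of 10 or 50 kb, changed no count by over 1.5 times. In each of these settings that altered the peaks or the window, the Cpr share stayed below that of all genes in every library but Ttk-depleted ECs, where 0 of 70 allows up to 5.20% and all genes fell to 4.80% over the start site and 0.645% at a -log10 q of 10. The causes were not tested.

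Depth is unknown, populations have 1 library each, and a weak or absent peak in the shortest list cannot be told from low depth.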

Other observations

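Genes of the peritrophic matrix, the chitinous lining that the midgut does make, were counted beside the Cpr genes. Of 9 such genes, 5 had one in EEs, 4 in Pros-depleted EEs, 1 in Ttk-depleted ECs, and 2 each in progenitor cells and ECs. The 55.6% in EEs and 44.4% in Pros-depleted EEs were near the shares of all genes, 49.4% and 46.6%. Chs2, the chitin synthase gene of the gut, had one in all 5 libraries, and Muc68D in all but Ttk-depleted ECs. Peritrophin-15a and Peritrophin-15b had one in EEs and Pros-depleted EEs only, with that of Peritrophin-15a over the start site. That of Peritrophin-15b was near the window edge, at 0.953 kb in EEs and 0.998 kb in Pros-depleted EEs. Peritrophin-A, counted in EEs only, was at 0.904 kb. None of the 9 had a coding-exon summit in ECs.

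The chemoreceptor genes, another large family of short genes, had start-site peaks in 25 of 179 in ECs, 21 in EEs, 16 in Pros-depleted EEs, 14 in progenitor cells and 5 in Ttk-depleted ECs. Their median distance to a peak was 7.62 kb in progenitor cells and 5.44 kb in ECs, against 14.1 kb and 5.70 kb for the Cpr genes. Coding-exon summits in ECs were found in 8.38% of them (5.14 to 13.4).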
